A study of Mus musculus with 6 samples.

Results

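The genes described here encode the Eph receptors, ephrins, semaphorins, plexins, neuropilins, Slits and Robos, the main families of axon guidance proteins. They were taken by symbol from the comparison table deposited with the series: symbols that begin with Epha, Ephb, Efna, Efnb, Sema or Plxn, and Nrp1, Nrp2, Robo1, Robo2, Robo3, Slit1, Slit2 and Slit3. The table has a symbol column of the authors and a symbol column of the array maker, and a gene was taken when either gave such a symbol. That choice was made after the table had been seen. The result is 58 genes on 76 of the 27269 probes of the table, and the authors' column alone gives 24 of them. Each gene is represented by the brightest of its probes over the 6 arrays, and 57 of the 58 were measured among the 21063 rows tested (a row is a gene, or a probe without a gene name). They are 13 Eph receptors, 8 ephrins, 20 semaphorins, 10 of the 11 plexins and neuropilins, and 6 Slits and Robos.

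The data are 1-colour Agilent arrays of total RNA from dissected dorsal forebrain (dorso-medial pallium) of single mouse embryos at E11.5, 3 control and 3 mutant, with each litter giving an embryo to both groups. Control and mutant are the only names the labels give, and the mutated gene, its driver and the strain are not given in the sources used here. The title of the series concerns Wnt/beta-catenin signalling in precursors of the cortex. Between 65.75% and 70.1% of the spots of an array were well above background and no spot was saturated. Levels are given as log2 signal with the 75th percentile of the array set to 0 (that percentile was 1206.9 to 1833.2 in signal units, lower on each mutant array than on each control array). Differences are mutant minus control, with the standard error (SE) of the fit. The dorsal forebrain markers Emx1, Emx2, Lhx2, Pax6 and Eomes were above background on all 6 arrays, and their differences stand with the other markers. In whole tissue, fewer cells of a type and less RNA per cell cannot be told apart.

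Guidance proteins steer growing axons and migrating neurons by attraction and repulsion. Ephrins are membrane-bound ligands of the Eph receptor tyrosine kinases and signal in both directions across a contact. Secreted class 3 semaphorins act through neuropilins paired with plexins, whereas most membrane-bound semaphorins bind plexins directly, and secreted Slit proteins repel through Robo receptors. In the developing forebrain these systems also act on progenitors, on the boundaries between regions, and on the vessels that grow into the wall.

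To show the DNA in front of genes that carry the results, the promoters of 4 members are printed: Sema5a, Epha3 and Sema3a, with the smallest p-values among higher semaphorins and Eph receptors, and Epha4, with the smallest p-value among lower members. The sequences are RefSeq's for GRCm38.p6, the 250 bases before the gene's start, 5′ to 3′ on the gene's strand, with CG dinucleotides in capitals. They lie at chr15:32244563-32244812 (plus strand), chr16:63864176-63864425 (minus strand), chr5:13396534-13396783 (plus strand) and chr1:77515089-77515338 (minus strand).
Sema5a: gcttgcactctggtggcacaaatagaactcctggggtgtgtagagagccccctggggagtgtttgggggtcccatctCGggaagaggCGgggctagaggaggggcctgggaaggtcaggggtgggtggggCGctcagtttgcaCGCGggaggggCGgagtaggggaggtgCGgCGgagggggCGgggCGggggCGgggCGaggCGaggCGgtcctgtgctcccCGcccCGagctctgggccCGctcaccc
Epha3: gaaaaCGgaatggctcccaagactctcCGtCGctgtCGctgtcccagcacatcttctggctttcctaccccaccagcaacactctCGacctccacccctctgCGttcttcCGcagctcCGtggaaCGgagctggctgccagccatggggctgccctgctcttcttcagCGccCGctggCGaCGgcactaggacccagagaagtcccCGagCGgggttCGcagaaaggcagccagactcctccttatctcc
Sema3a: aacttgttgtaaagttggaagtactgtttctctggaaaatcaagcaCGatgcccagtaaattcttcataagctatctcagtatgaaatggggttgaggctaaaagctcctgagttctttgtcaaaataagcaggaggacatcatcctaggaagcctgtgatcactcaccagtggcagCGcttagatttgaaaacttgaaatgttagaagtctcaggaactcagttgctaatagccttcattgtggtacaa
Epha4: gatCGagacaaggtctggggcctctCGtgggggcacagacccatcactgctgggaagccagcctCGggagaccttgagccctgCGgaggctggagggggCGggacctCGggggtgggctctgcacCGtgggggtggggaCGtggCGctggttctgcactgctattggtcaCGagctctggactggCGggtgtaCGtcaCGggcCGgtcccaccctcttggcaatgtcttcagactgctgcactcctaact
The printed stretches hold 17, 16, 2 and 14 CG dinucleotides in this order. The Sema3a stretch thus differs from the other 3, which are rich in CG. RefSeq windows that run on to 50 bases after the start were found for 51 of the 58 members (67 windows), with a median of 18.0 CG dinucleotides against 7.0 over all 32851 windows, and a median GC content of 64.0% against 52.7%. The letters CTTTGAA or CTTTGAT, the core bound by Tcf/Lef factors of the Wnt pathway, searched on both strands, were in 3 of the 67 windows (4.48%, in Epha2, Sema3e and Nrp2) and in 8.65% of all windows. None of the printed promoters holds them, which says only that these letters are not in this window.

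No member passed the test over all rows (limma with Benjamini-Hochberg adjustment at 0.05), while 7 of the 21063 rows did (0.0332%). That count of rows was 0 with litter or slide as a block, 0 or 1 with each embryo left out in turn, 131 with normexp background correction and 143 with a variance trend, and the count of members was 0 in each. At an unadjusted p under 0.05 there were 22 members, 15 higher and 7 lower in the mutants, where 16.9% of all rows passed (9.50% higher and 7.44% lower). The 22 members are 38.6% of the 57. The count fell to 9 without control 3, 12 without mutant 2 and 14 without mutant 3, with 9.08%, 13% and 14.8% of all rows. The 3 control and the 3 mutant levels did not overlap in 22 members, 16 higher and 6 lower, compared with 24.9% of all rows (13.0% and 11.9%). The difference had the same sign in all 3 litters in 33 members, 23 higher (26.1% of all rows) and 10 lower (21.2%).

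The members' differences were small. They ran from -0.65 (Ephb3) to 0.78 (Slit3), and 11 members differed by at least 0.5 on the log2 scale (19.3%, against 11.2% of all rows). Their median was 0.14, against 0.02 over all rows, with 39 members above 0 (68.4%, against 55% of all rows) and 18 below. Centring each array on its median in place of the 75th percentile moved the median of all rows by -0.100 and that of the members to 0.04. It left 31 of 57 members above 0 (54.4%, against 36.8% of all rows). At an unadjusted p under 0.05 (limma) it gave 6 higher and 9 lower members, where 16.6% of all rows passed. Under quantile normalization the split was 12 higher to 7 lower, where 16.3% of all rows passed. The sign of 7 weakly differing members (Epha1, Epha2, Epha6, Epha7, Ephb4, Plxna3 and Sema4b, all within 0.09 of 0 in either scaling) turned to negative with median centring, and Sema7a went from 0.10 to just below 0. Normexp background correction turned Efna3, Epha8, Sema3d and Sema3e to positive (0.06, 0.14, 0.25 and 0.09). By family the median was 0.29 for semaphorins and 0.51 for Slits and Robos (0.19 and 0.41 with median centring), 0.13 for ephrins and 0.15 for plexins and neuropilins (0.03 and 0.05). That of the Eph receptors was 0.02 and turned to -0.08 with median centring, -0.12 with quantile normalization and -0.05 in the authors' values.

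**Figure D1:**
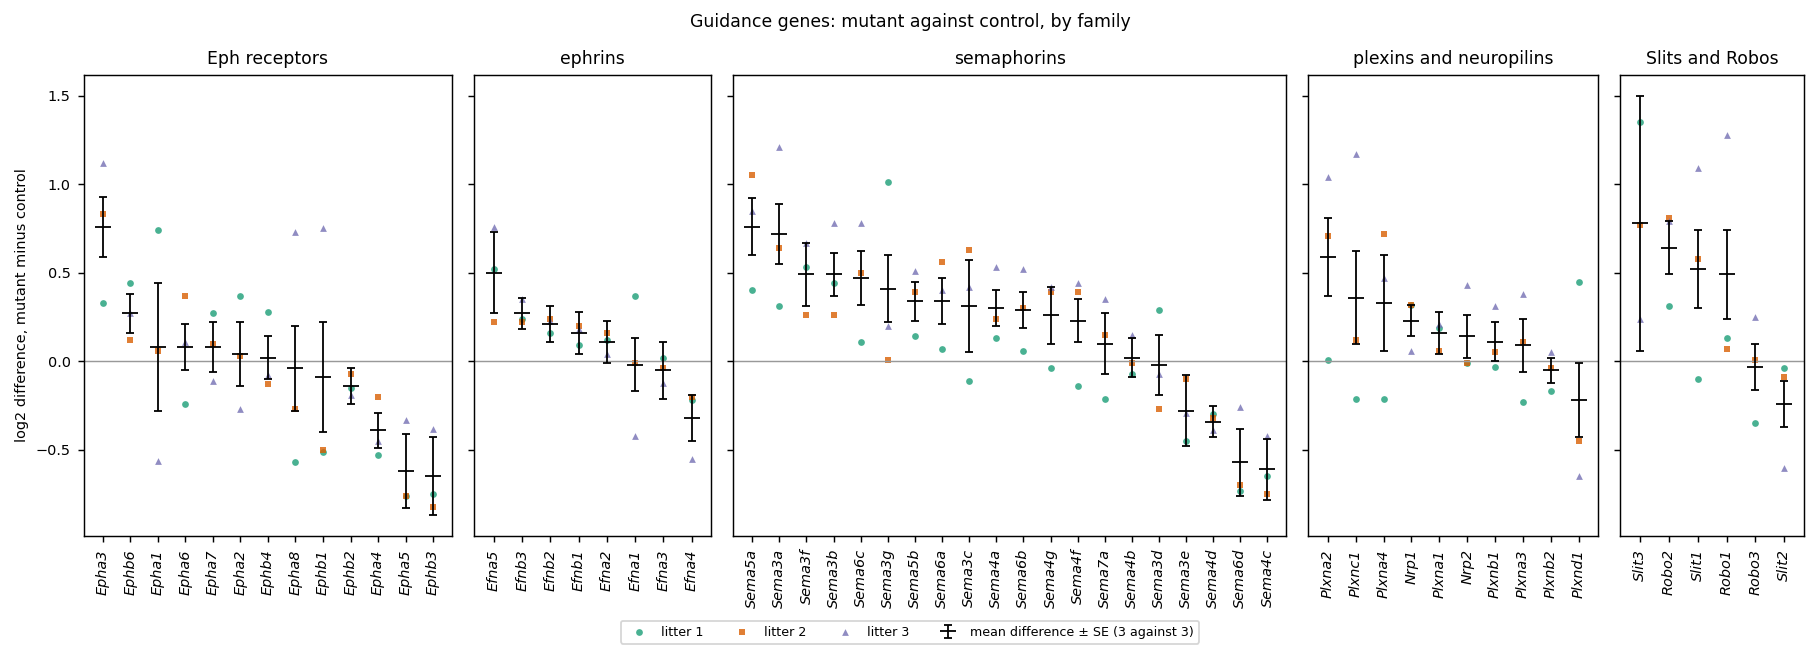
Log2 difference (mutant minus control, vertical axis) of the 57 measured guidance genes in 5 panels by family, ordered by size within each panel. Black bars are the mean difference ± SE over 3 control and 3 mutant arrays, and the coloured points are the differences within litters 1, 2 and 3. Of the semaphorins 15 of 20 lie above 0, while the Eph receptors lie on both sides (7 above, 6 below; 2 above with median centring).

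Among the semaphorins, the ligands of plexins and neuropilins, 12 of 20 had an unadjusted p under 0.05 (limma), 9 higher and 3 lower, where 16.9% of all rows did (9.50% and 7.44%). Without control 3 the count was 6 (4 higher and 2 lower, with 9.08% of all rows passing). It was 7 without control 2 (4 and 3, 12.5%), mutant 2 (5 and 2, 13%) or mutant 3 (4 and 3, 14.8%). Without control 1 or mutant 1 it was 12 (10 and 2, 13.9%) and 13 (11 and 2, 21.4%). Median centring gave 7 (4 and 3, 16.6%). Sema5a, a transmembrane semaphorin with thrombospondin repeats, was at 2.40, 2.21 and 2.46 (controls 1 to 3) against 2.80, 3.26 and 3.31 (mutants 1 to 3). Every mutant lay above every control, a difference of 0.76 (SE 0.16, 1.70-fold). It was positive in 3 of 3 litters, with an adjusted p of 0.152 (limma), the smallest of any member. In the authors' deposited table Sema5a has an fdr of 0.0415, and no other member probe is under 0.05 there. The table has 357 probes under 0.05, 1.31% of all its probes and 3.11% of the 11483 with an fdr, and it gives an fdr for 55 of the 76 member probes. The probe maps to chromosome 15, 32626025 to 32626084, in the mm9 positions that the table gives.

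Class 3 semaphorins are secreted, and 5 of the 7 were higher in the mutants. Sema3a, the founding chemorepellent of the class, was at -1.77, -2.00 and -2.14 (controls 1 to 3) against -1.46, -1.36 and -0.93 (mutants 1 to 3). The groups did not overlap, at a difference of 0.72 (SE 0.17, 1.65-fold, 3 of 3 litters, adjusted p = 0.179 with limma). Its second, dimmer probe differed by 0.73 (SE 0.14), close to that of the brightest. Sema3b was at -1.78, -1.81 and -1.93 (controls 1 to 3) against -1.34, -1.55 and -1.15 (mutants 1 to 3), apart in all arrays by 0.49 (SE 0.12, adjusted p = 0.184 with limma). Sema3f, a ligand of neuropilin 2, was at 0.49, 0.26 and -0.00 (controls 1 to 3) against 1.02, 0.52 and 0.66 (mutants 1 to 3). Its groups were apart too, by 0.49 (SE 0.18, adjusted p = 0.269 with limma). The groups of Sema3g were apart by 0.41 (SE 0.19), of which most came from litter 1 (1.01, against 0.01 and 0.20 in litters 2 and 3), and its dimmer second probe differed by -0.22. Sema3c differed by 0.31 (SE 0.26) and Sema3e by -0.28 (SE 0.20, 0.09 after normexp background correction), both with overlapping groups. Sema3d was above background on all 3 control arrays and no mutant array, yet its levels overlapped (-6.83, -6.88 and -6.94, against -6.54, -7.15 and -7.01), so no fold is given.

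Class 4 semaphorins, transmembrane ligands of B plexins among other receptors, went both ways. Sema4c was at 5.42, 5.13 and 5.39 (controls 1 to 3) against 4.77, 4.38 and 4.97 (mutants 1 to 3). Each mutant lay below each control, by a mean of -0.61 (SE 0.17, 1.52-fold lower, adjusted p = 0.210 with limma). Sema4d, a ligand of plexin B1, was at -0.68, -0.49 and -0.49 (controls 1 to 3) against -0.98, -0.82 and -0.88 (mutants 1 to 3). Its differences within the 3 litters were alike (-0.30, -0.32 and -0.39), with a mean of -0.34 (SE 0.09, adjusted p = 0.191 with limma). Sema4a differed by 0.30 (SE 0.10) with groups apart, and Sema4b, Sema4f and Sema4g by 0.02, 0.23 and 0.26 with overlapping groups.

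In the transmembrane classes 5 and 6, each of the 2 class 5 and 4 class 6 genes had an unadjusted p under 0.05 (limma), where 16.9% of all rows did. Their groups were apart, as in 24.9% of all rows. These p-values ran from 0.00334 (Sema5a) to 0.0446 (Sema6a, both limma). Sema6c was at -0.42, -0.44 and -0.58 (controls 1 to 3) against -0.31, 0.07 and 0.20 (mutants 1 to 3), a difference of 0.47 (SE 0.15, adjusted p = 0.225 with limma). Sema5b differed by 0.34 (SE 0.11), with 0.26 (SE 0.14) at its second probe, and Sema6a and Sema6b by 0.34 (SE 0.13) and 0.29 (SE 0.10). All 4 were positive in 3 of 3 litters. Sema6d was the exception in sign at its brightest probe, -0.57 (SE 0.19), while its second, dimmer probe differed by 0.35 (SE 0.18) and the mean of both by -0.11. Sema7a, which is anchored by a lipid and binds plexin C1 and integrins, differed by 0.10 (SE 0.17).

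Their receptors, the plexins and neuropilins, differed less. Plxna2, a receptor of class 6 semaphorins, was at 1.73, 1.40 and 1.51 (controls 1 to 3) against 1.73, 2.11 and 2.55 (mutants 1 to 3). Mutants 2 and 3 stood above all controls while mutant 1 equalled control 1 to the second decimal, and the mean difference was 0.59 (SE 0.22, adjusted p = 0.271 with limma). Nrp1, the co-receptor that binds Sema3a, was at -2.79, -2.74 and -2.73 (controls 1 to 3) against -2.47, -2.42 and -2.67 (mutants 1 to 3). Its controls were close together and all mutants were higher, by 0.23 (SE 0.09, adjusted p = 0.277 with limma).
Nrp2 was at 1.91, 1.74 and 1.61 (controls 1 to 3) against 1.90, 1.73 and 2.04 (mutants 1 to 3), where mutant 3 alone exceeded the controls (difference 0.14, SE 0.12). Plxna4 was at 0.14, 0.08 and 0.39 (controls 1 to 3) against -0.07, 0.80 and 0.86 (mutants 1 to 3), low in mutant 1 and high in mutants 2 and 3 (0.33, SE 0.27). Plxnc1, the receptor of Sema7a, was at -0.78, -0.99 and -1.65 (controls 1 to 3) against -0.98, -0.87 and -0.48 (mutants 1 to 3), a difference of 0.36 (SE 0.26) that lay mostly within litter 3 (1.17). Plxna1 was at -2.21, -2.42 and -2.44 (controls 1 to 3) against -2.02, -2.35 and -2.23 (mutants 1 to 3), with overlap and 0.16 (SE 0.12). Their adjusted p lay between 0.516 and 0.589 (limma). Plxna3, Plxnb1 and Plxnb2 differed by 0.09, 0.11 and -0.05. Plxnd1, the receptor of Sema3e, differed by -0.22 (SE 0.21). Plxnb3 was above background on 2 control arrays and no mutant array and was not tested. Its control mean was -6.76 (SD 0.53), against -6.84 for the dimmest probes above background on the mutant arrays. That mean includes a control array not above background, so no lower bound on the fold is given.

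**Figure D2:**
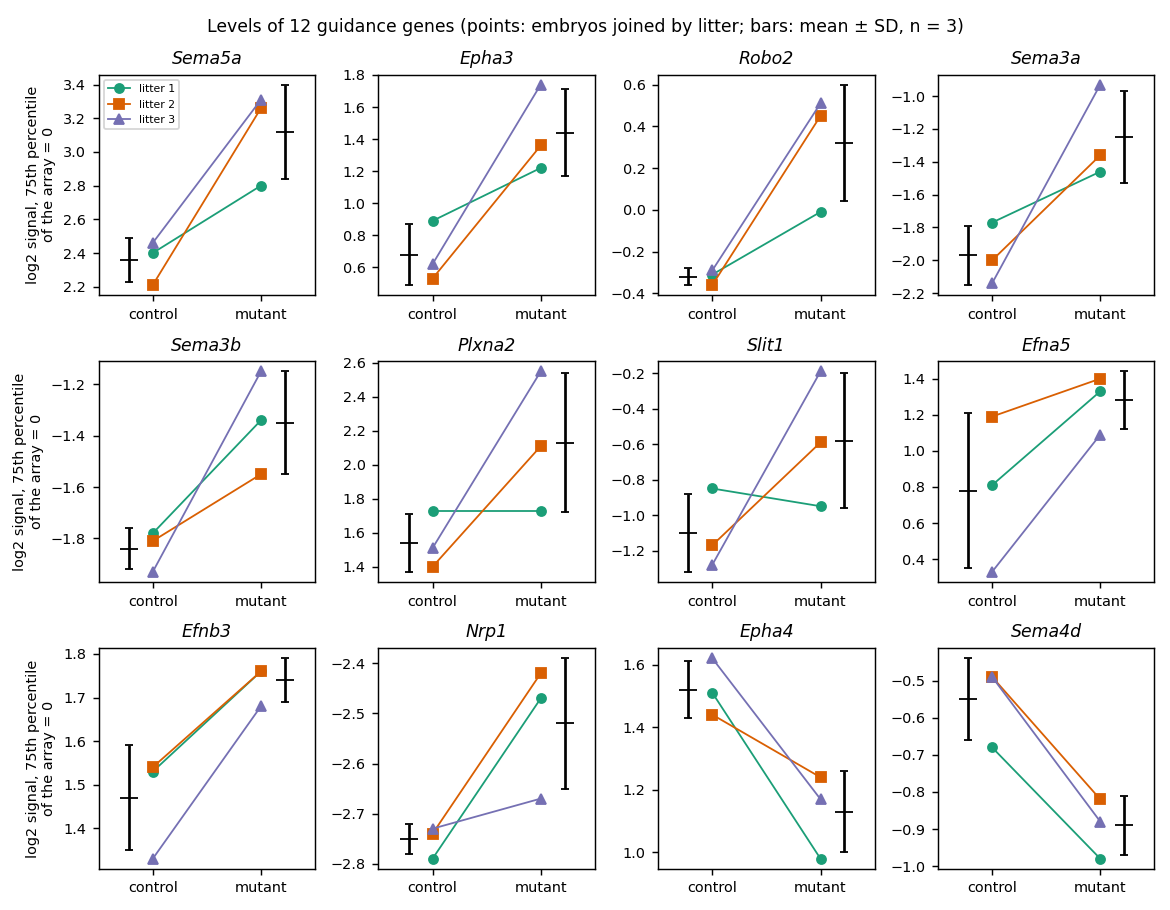
Levels of 12 guidance genes in control and mutant embryos (log2 signal, with the 75th percentile of the array at 0). Points are single embryos, lines join the embryos of a litter, and bars are the group mean ± SD (n = 3). In Sema5a, Epha3, Robo2 and Sema3a every mutant lies above every control, in Epha4 and Sema4d every mutant lies below, and in Slit1 and Efna5 the groups overlap.

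The Eph receptors showed no common direction. Epha3, a receptor of A-type ephrins, was at 0.89, 0.53 and 0.62 (controls 1 to 3) against 1.22, 1.36 and 1.74 (mutants 1 to 3). All mutants were above all controls, by 0.76 (SE 0.17, 1.69-fold, 3 of 3 litters, adjusted p = 0.161 with limma). The probe maps to chromosome 16, 63545155 to 63545214, in mm9. Epha4, which binds A and B ephrins, was at 1.51, 1.44 and 1.62 (controls 1 to 3) against 0.98, 1.24 and 1.17 (mutants 1 to 3). Here all mutants were below all controls, by -0.39 (SE 0.10, 1.31-fold lower, 3 of 3 litters, adjusted p = 0.188 with limma).

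Ephb3, a receptor of B ephrins, was at 4.13, 3.67 and 3.96 (controls 1 to 3) against 3.38, 2.85 and 3.58 (mutants 1 to 3), a difference of -0.65 (SE 0.22, adjusted p = 0.242 with limma). Epha5, another ephrin-A receptor, was at 2.83, 2.39 and 2.66 (controls 1 to 3) against 2.06, 1.62 and 2.33 (mutants 1 to 3) by its brightest probe, a difference of -0.62 (SE 0.21, adjusted p = 0.242 with limma). In both genes mutant 2 was lowest and the groups were apart. Ephb6, which lacks kinase activity, was at -0.05, -0.11 and -0.08 (controls 1 to 3) against 0.38, 0.01 and 0.19 (mutants 1 to 3), all mutants above all controls by 0.27 (SE 0.11, adjusted p = 0.290 with limma), and its second probe differed by 0.31 (SE 0.11). Ephb2 was at -1.72, -1.87 and -1.91 (controls 1 to 3) against -1.86, -1.94 and -2.10 (mutants 1 to 3), with overlap and -0.14 (SE 0.10). The other 7 Eph receptors (Epha1, Epha2, Epha6, Epha7, Epha8, Ephb1 and Ephb4) differed by -0.09 to 0.08, with overlapping groups. Among them Ephb1 was low in mutant 2 (-0.96) and high in mutant 3 (0.14), and Epha1 was high in mutant 1 (-3.86) and low in mutant 3 (-5.30), so means near 0 covered arrays that differed. Epha6 was above background on 4 of 6 arrays.

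Of the ephrins, the 3 transmembrane B-type ligands were higher within each litter, by small amounts. Efnb3, known as a midline barrier to axons, was at 1.53, 1.54 and 1.33 (controls 1 to 3) against 1.76, 1.76 and 1.68 (mutants 1 to 3), with groups apart by 0.27 (SE 0.09, adjusted p = 0.227 with limma). Efnb2, also an arterial marker, was at 2.88, 3.06 and 2.91 (controls 1 to 3) against 3.04, 3.30 and 3.15 (mutants 1 to 3), a difference of 0.21 (SE 0.10) with mutant 1 below control 2, and 0.35 (SE 0.10) at its second probe. Efnb1, an X-linked gene expressed in cortical progenitors, was at 5.28, 5.49 and 5.46 (controls 1 to 3) against 5.37, 5.69 and 5.64 (mutants 1 to 3), with overlap and 0.16 (SE 0.12). These 3 differences shrank to 0.17, 0.11 and 0.06 with median centring. The lipid-anchored A-type ligands did not share a direction. Efna5, which helps to place thalamic axons in the cortex, was at 0.81, 1.19 and 0.33 (controls 1 to 3) against 1.33, 1.40 and 1.09 (mutants 1 to 3), positive in 3 of 3 litters at 0.50 (SE 0.23), but with controls spread over more than the difference (adjusted p = 0.342 with limma). Efna4 was at -0.05, -0.29 and -0.09 (controls 1 to 3) against -0.26, -0.49 and -0.64 (mutants 1 to 3). It was lower in 3 of 3 litters, by -0.32 (SE 0.13, adjusted p = 0.282 with limma), with overlap between control 2 and mutant 1. Efna2 was at 0.43, 0.69 and 0.53 (controls 1 to 3) against 0.54, 0.85 and 0.57 (mutants 1 to 3), 0.11 (SE 0.12), and Efna1 and Efna3 differed by -0.02 and -0.05.

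The 6 Slits and Robos had the highest family median (0.51; 0.04, 0.33 and 0.52 in litters 1, 2 and 3) and, in Slit3, the largest error of any member. Of the 6, 1 had an unadjusted p under 0.05 (limma), 16.7% against 16.9% of all rows. Robo2, a Slit receptor, was at -0.31, -0.36 and -0.29 (controls 1 to 3) against -0.01, 0.45 and 0.51 (mutants 1 to 3). Its controls lay within a narrow band (SD 0.04) and all mutants were higher, by 0.64 (SE 0.15, 1.55-fold, adjusted p = 0.173 with limma). The other kept probes of Robo2 differed by 0.65 (SE 0.21) and 0.43 (SE 0.19), so the 3 probes shared the direction. The brightest maps to chromosome 16, 73894653 to 73894712, in mm9. Robo1 was at 0.34, 0.20 and -0.41 (controls 1 to 3) against 0.47, 0.27 and 0.87 (mutants 1 to 3), and its difference of 0.49 (SE 0.25) came mostly from litter 3 (1.28, against 0.13 and 0.07). Robo3, the divergent Robo known from commissural axons, was at 1.31, 1.08 and 1.12 (controls 1 to 3) against 0.96, 1.09 and 1.37 (mutants 1 to 3), which gives no direction (-0.03, SE 0.13).
The ligand Slit1 was at -0.85, -1.17 and -1.28 (controls 1 to 3) against -0.95, -0.59 and -0.19 (mutants 1 to 3), high in mutants 2 and 3 but not in mutant 1 (0.52, SE 0.22, adjusted p = 0.309 with limma). Slit2 was at -1.28, -1.18 and -1.10 (controls 1 to 3) against -1.33, -1.27 and -1.70 (mutants 1 to 3), lower within each litter, by -0.24 (SE 0.13) on average. Slit3 was at -4.54, -5.23 and -6.02 (controls 1 to 3) against -3.19, -4.46 and -5.79 (mutants 1 to 3). Its arrays spread over more than 2 log2 units in the mutants, and the difference of 0.78 (SE 0.72) was close to its error. It was 0.14 without mutant 1, 0.40 without control 3, 1.14 without control 1 and 1.44 without mutant 3.

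In 4 of the 7 lower members at an unadjusted p under 0.05, Epha5, Ephb3, Sema4c and Sema6d, the 6 arrays ran in the same order. Sema6d was at 0.36, -0.02 and 0.18 (controls 1 to 3) against -0.37, -0.73 and -0.08 (mutants 1 to 3). In each of the 4 genes mutant 2 was lowest, then mutant 1, mutant 3, control 2, control 3 and control 1, and the correlation between any 2 of them over the 6 arrays was 0.989 to 0.998. This group was picked after its values were seen. A further 122 rows correlated with the mean of the 4 at 0.97 or more, all with negative differences (median -0.60), among them Itsn1, an intersectin that works with Eph receptors (-0.62). Taken singly, Epha5, Ephb3, Sema4c and Sema6d had 124, 122, 136 and 117 rows so like them. For the other 53 members the number was 4 to 165 (median 34). The 4 genes thus lay in the upper part of that range without exceeding it.

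Second probes did not repeat this order. Epha5's second probe was at 0.36, 0.02 and 0.19 (controls 1 to 3) against 0.29, 1.09 and 1.46 (mutants 1 to 3), a difference of 0.76 (SE 0.30), opposite to that of the brightest probe. The mean of the 2 probes differed by 0.07. The second probe of Sema6d was opposite too (0.35), and Ephb3 and Sema4c had a single probe. Of 40 rows with the shared order and a second kept probe, none had that probe at a correlation of 0.97 with the order, and 12 (30%) at 0.5. Rows as like each of 20 other members, where at least 10 had a second probe, gave 27.3% to 91.7% at 0.5 (median 75.8%). Whether the order comes from the RNA or from the probes was not tested. Without the 4 genes, 18 of 53 members had an unadjusted p under 0.05 (limma, 16.9% of all rows did), 15 higher and 3 lower. The median difference of the 53 was 0.16. Of the 16 members with several kept probes, Ephb4 and Sema3g also had probes of opposite sign.

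**Figure D3:**
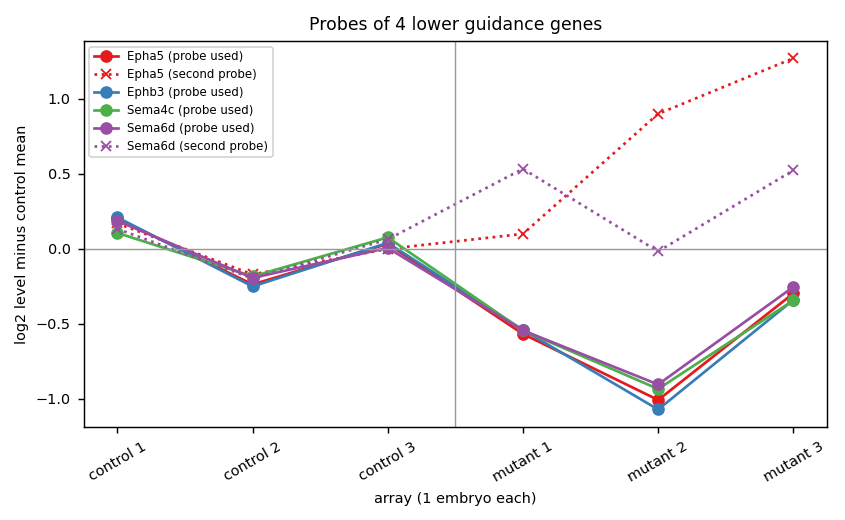
Level of each kept probe of Epha5, Ephb3, Sema4c and Sema6d on the 6 arrays, in log2 units relative to the probe's control mean. Solid lines are the brightest probes, which run in the same order with mutant 2 lowest, and dotted lines are second probes, which are higher in mutant 3 than in any control.

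The members did not differ equally in the 3 litters. The median difference of all 57 was 0.06, 0.11 and 0.25 in litters 1, 2 and 3, and that of the semaphorins 0.06, 0.26 and 0.42. Litter 1 gave the smallest of the 3 differences in 24 of the 39 members above 0 (61.5%, against 44.7% of all rows above 0) and in 12 of 15 such semaphorins. Litter 1 also was the only litter on slide 1; litters 2 and 3 shared slide 2. Within slide 2 the members' median was 0.19. The Eph receptors did not follow this, with medians of -0.15, -0.07 and -0.11.

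**Figure D4:**
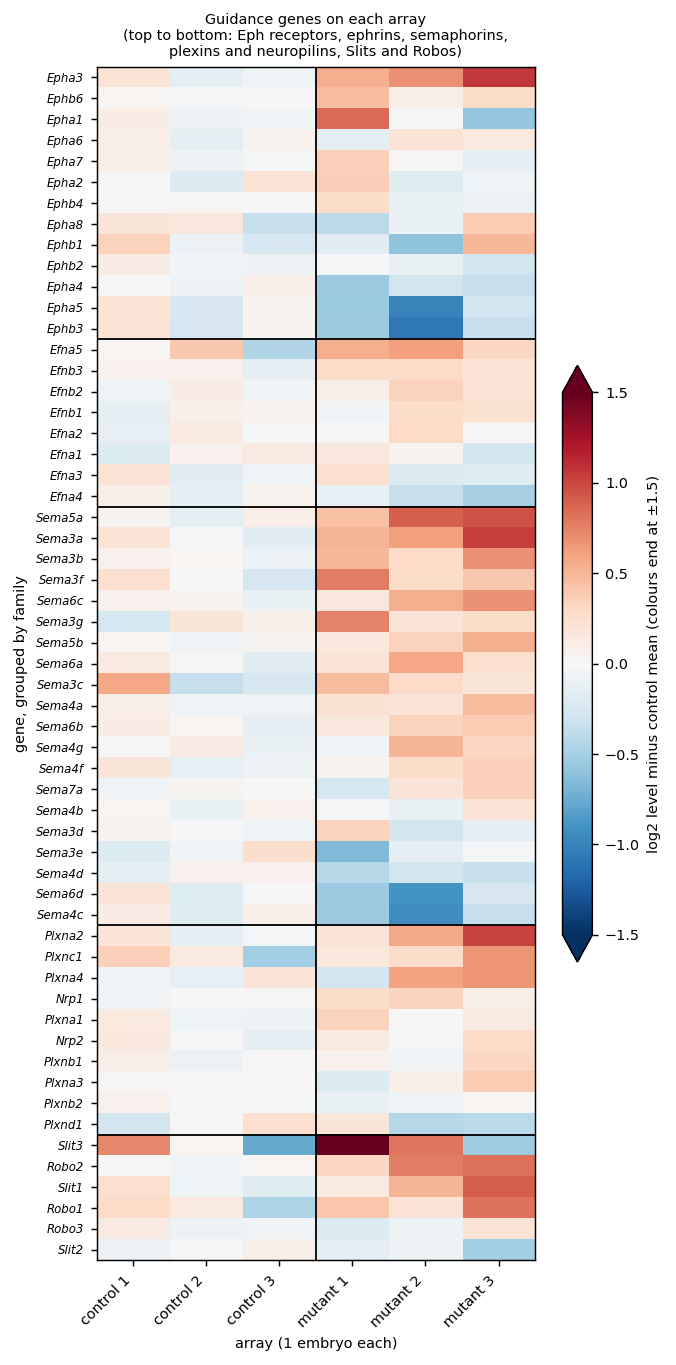
Level of the 57 measured guidance genes (rows, grouped by family and ordered by difference) on the 6 arrays (columns), as log2 distance from the control mean of the gene; red is higher and blue is lower, with colours ending at 1.5 in either direction. The upper semaphorin rows are red in all 3 mutants, mostly deepest in mutant 2 or 3 (in mutant 1 for Sema3f and Sema3g), and the blue rows of Epha5, Ephb3, Sema4c and Sema6d are deepest in mutant 2.

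Markers of other cells also moved with the groups and litters. All 12 neuron markers listed, among them Tubb3, Dcx and Stmn2, were measured. At an unadjusted p under 0.05 (limma), 6 of them were higher, where 9.50% of all rows were. All 12 differences lay above 0 (against 55% of all rows), though that of Nefl rounded to 0.00 (SE 0.16). With each other scaling tried, 11 of the 12 markers were above 0 (36.8% to 64.1% of all rows). In mutants 1, 2 and 3 their median level stood 0.10, 0.44 and 0.63 over the control mean, and in controls 1, 2 and 3 at 0.11, -0.00 and -0.11, so that mutant 1 did not exceed control 1. The semaphorins were at 0.17, 0.27 and 0.34 and the Slits and Robos at 0.23, 0.37 and 0.51, so that mutant 3 was highest and mutant 1 lowest in all 3 lists. The summed signal of the neuron markers (in multiples of the 75th percentile) was 72.6 to 79 in controls and 83.2 to 117 in mutants. Its part in the results was not tested.

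Of 10 subpallium markers 9 were measured (not Nkx2-1), with sums of 2.23 to 8.51 in controls, control 3 lowest, and 11.15 to 14.4 in mutants. Their median level over the control mean was 1.09, 0.86 and -2.05 in controls 1 to 3, and 1.41, 0.86 and 1.94 in mutants 1 to 3. By that median mutant 2 did not exceed control 1 or control 2. Of the 9 markers 1 (Lhx6) was higher at an unadjusted p under 0.05 (limma), where 9.50% of all rows were. The 10 markers of meninges and head mesenchyme summed to 19.9 to 29.8 in controls and 14.5 to 43.1 in mutants, highest in mutant 1. Of the 57 members 12 were highest in that embryo (21.1%, against 19.4% of all rows), among them Epha1, Ephb6, Sema3f and Slit3. Of 11 markers of cortical hem and choroid plexus 8 were measured (not Wnt2b, Wnt3a and Ttr), with sums of 1.62 to 4.17 and 2.955 to 9.14. The 10 endothelial markers summed to 9.035 to 10.86 and 7.69 to 11.49. The 8 Cajal-Retzius markers summed to 3.91 to 4.4 and 4.31 to 5.24. The 6 of 8 diencephalic markers measured (not Sim1 and Barhl2) summed to 1.22 to 1.65 and 1.81 to 2.28. The 8 microglial, 8 erythroid and 7 surface ectoderm markers summed to 2.67 to 3.14, 656 to 750.2 and 2.83 to 2.88 in controls, and to 2 to 3.38, 458 to 739.5 and 2.95 to 3.43 in mutants. The surface ectoderm sums were mostly the signal of Trp63 (1.31 to 1.61 over the arrays), the brightest of the 7. Of these 7 markers 2 had a difference above 0, and their median difference was -0.09. Of the dorsal forebrain markers with an unadjusted p under 0.05 (limma), Emx2, Emx1 and Lhx2 were lower in every mutant than in every control (-0.92, -0.81 and -0.58), and Pax6 and Eomes were higher (0.33 and 0.38). None of these 5 passed the adjusted threshold (adjusted p of 0.067 to 0.293 with limma). The part of these cells in the guidance genes was not tested either.

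**Figure D5:**
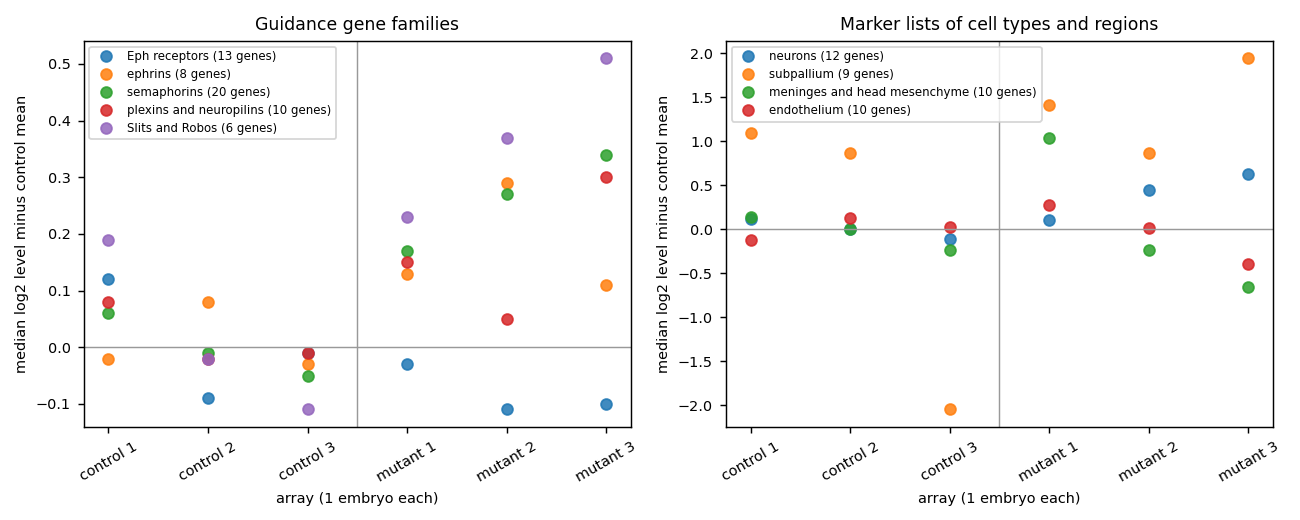
Median level over the control mean (log2) of the 5 guidance families (left) and of 4 marker lists (right) on each of the 6 arrays. Semaphorins, Slits and Robos, and neuron markers are highest in mutant 3, while the mesenchyme markers are highest in mutant 1 and the subpallium markers are lowest in control 3.

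The wider guidance pathway was read from 4 lists, 88 genes of which 87 were measured. At an unadjusted p under 0.05 (limma) there were 16 of the 87 (18.4%, against 16.9% of all rows), 10 higher and 6 lower, with a median difference of 0.06. Of these 87 genes only Flrt3, an adhesion protein that binds Unc5 receptors, passed the test over all rows. It differed by -1.51 (SE 0.10, lower in 3 of 3 litters, adjusted p = 0.0381 with limma). That call was lost with litter as a block (adjusted p = 0.156), with slide as a block (0.0981), with no filter on dim probes (0.0896), with the mean of probes (0.0526) and with each embryo left out in turn (0.0696 to 0.236, at differences of -1.42 to -1.59).

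Of 26 partners of semaphorins and plexins 4 were higher and 2 lower at an unadjusted p under 0.05 (limma), 23.1% against 16.9% of all rows. Nrcam, an adhesion protein that joins neuropilin complexes, was at 1.94, 1.31 and 1.49 (controls 1 to 3) against 2.79, 2.57 and 2.94 (mutants 1 to 3), a larger difference than any member's at 1.18 (SE 0.19, adjusted p = 0.105 with limma). Rnd1, a GTPase that binds plexins, was lower in each mutant than in each control, by -0.37 (SE 0.07). Of 25 ephrin partners 2 were higher and 1 lower (12%, against 16.9% of all rows). They were the kinase Src at 0.57 (SE 0.15), the exchange factor Vav3 at 0.33 (SE 0.09), and Itsn1. Of 19 Slit and Robo partners 1 was higher and 1 lower, Srgap1, a Robo-binding GTPase activator, at 0.30 (SE 0.10), and Ext1, an enzyme of heparan sulfate synthesis, at -0.35 (SE 0.10). Of 17 measured netrin and other guidance genes 3 were higher and 2 lower (29.4%, against 16.9% of all rows), with Ntn4, a netrin, at 0.60 (SE 0.13).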

How the data were processed

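RNA of 3 control and 3 mutant embryos was hybridised to 1-colour arrays, and the labels name separate embryos as samples. The deposited scanner files hold each spot's intensity, which the authors extracted and background-subtracted (Agilent Feature Extraction version 10.7.3.1, design 026655, mm9 grid), per the file headers. They mark spots well above background and outlier spots as 0 or 1 in other columns. For the whole series the authors deposited a table with log2 values in 6 columns, a log2 ratio, a p-value and an fdr. Its column numbers did not follow the sample titles (5 of 6 matched another array best), so its columns were used by group only. The submitters' processing notes name limma.

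Outlier spots were left out, spots of a probe averaged, and log2 intensity scaled to the array's 75th percentile. A probe was kept if at least 3 of 6 arrays had it well above background. Groups were compared with limma 3.58.1 in R 4.3.3 (two-sided, Benjamini-Hochberg over 21063 rows, threshold 0.05). The script was tested on simulated data. Files were read with Python 3.11.15 (pandas 2.3.3, numpy 2.4.6) and figures drawn with matplotlib 3.10.9. Probe positions are those of the deposited table.

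Members and lists were chosen with earlier results of these data known. Values on every array are given for the 6 measured members of smallest p in each family and for members past the threshold; other members appear by name with a difference or range, and of the other guidance genes those past the threshold and 2 of smallest p in each list. Sema3d, Sema3f, Sema6d and Plxnb3 are given beyond that rule, as were single values, after they were seen.

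The titles give the litter, so litters pair the samples: within a litter the deviations from the group mean had correlations of 0.309, 0.357 and 0.107, and between litters of -0.41 to 0.109. With litter as a block, 21 members had an unadjusted p under 0.05 (limma), where 19.8% of all rows did. Alternatives were normexp correction (offset 50, on the median signal in place of the mean signal planned), quantile normalization, median centring, no filter or all 6 arrays, averaged probes per gene, a block for litter or for slide, variance trend with robust estimation, the authors' log2 values and omission of each embryo. Slide 2 alone, the litter block with trend, the authors' symbol column alone, and omission of the 4 members of the shared profile were chosen after seeing the data.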

Additional observations from a re-analysis of the deposited data

How the results depend on the processing

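The count of members past the adjusted threshold stayed at 0 under every alternative in which it was run, with a smallest adjusted p among the members of 0.0672 (normexp) to 0.468 (without control 3). The count at an unadjusted p under 0.05 (limma) was 22, where 16.9% of all rows passed. With each embryo left out in turn it ranged from 9 (9.08% of all rows) to 23 (21.4%). It was 21 with litter as a block (19.8%) and 6 of 23 with the authors' symbol column alone (26.1%, against 16.9%). The other alternatives gave 15 with median centring (16.6% of all rows) to 25 with normexp (28.3%). The members' median (0.14, against 0.02 over all rows) was 0.04 with median centring (-0.08 over all rows), 0.23 with the authors' symbol column alone, and 0.11 to 0.19 otherwise. The median of all rows moved as well. With no filter on dim probes the members were at 0.12 and all rows at 0.11, and with normexp at 0.19 and 0.08. Median centring shifts all rows alike, and it moved the median of all rows by -0.100. The symbol column alone holds fewer genes. The cause of the other changes was not tested. With litter as a block 0 rows passed the adjusted threshold, against 7, and Flrt3 lost its call (adjusted p = 0.156). For the 30 members with values on every array, 506 of 510 alternative values kept their sign. A block for litter or slide, the variance trend and a changed filter do not alter these differences, so their sign could not turn there. The same holds for averaged probes in genes with a single probe. The sign turned in Epha5 with the mean of its probes (0.07), and in Robo3 without control 1 (0.04), without mutant 1 (0.06) and on slide 2 alone (0.13); without each embryo in turn Robo3 lay between -0.14 and 0.06. Signal over background limited Sema3d, Epha6 and Plxnb3.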
